A study of Mus musculus with 16 samples.

Results

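The m6A-changed sites described here lay in the last exons of liver mRNAs. They were taken from the authors' deposited table of a comparison between Mettl14 knockout and wild type livers, which lists 622 sites under 586 gene names. Each site was placed on the longest protein-coding transcript of its gene, and a site was kept when its midpoint fell in the last exon of that transcript. Of the 570 sites that could be placed, 352 in 339 genes were kept, and the other 218 lay in first or internal exons. The rule used position alone and neither the size nor the sign of a change.

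The comparison was between livers of 4 wild type mice, Albumin-Cre;Mettl14 +/+, and 4 liver-specific knockout mice, Albumin-Cre;Mettl14 flox/flox;Cre. All 8 mice carried the Albumin-Cre transgene and ate a 42% high-fat diet for 3 months. Age, sex and strain are not given in the sources used here. From each mouse 1 INPUT and 1 m6A-IP library were made, 16 in all. The albumin promoter is active mainly in hepatocytes, and how far Mettl14 was lost in other cells of the liver was not examined here.

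m6A is a methyl mark on adenosines of mRNA, placed by a writer complex in which METTL3 is the catalytic subunit, METTL14 holds the RNA and WTAP anchors the complex. The writer prefers adenosines in a short sequence known as DRACH, in which H is A, C or T, D is A, G or T, and R is a purine (A or G). In mammalian mRNAs the mark is known to be dense around the stop codon and in the last exon, where reader proteins of the YTH family bind it and affect the decay and translation of the mRNA.

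A natural log fold change, logFC, is listed for every site. It was estimated by the authors as the effect of genotype on IP counts adjusted for the INPUT level of the gene. The genotype that served as reference is not stated in the sources used here, so a site is called positive or negative by the sign of its logFC and not as more or less methylated. The p value listed beside it carries no label of an adjustment for the number of bins tested, and is used here only to order and select sites. The table holds no value per mouse, so the depth behind a site is unknown and no spread between mice can be given. It also holds no expression level, so neither the loss of Mettl14, which has no listed site, nor the markers of the tissue could be examined. Sites are not replicates of a condition, and the tests on counts of sites below treat them as independent.

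Stretches of 30 bases from 10 members are shown, so that the sequence behind the sites with the smallest p values can be seen. They come from the 4 members with the smallest p in each of 4 classes (positive or negative, in the 3′UTR or in the coding part of the last exon), where the site held the motif RRACH, the subset of DRACH without T at its first base. Sequences are from GRCm38, 5′ to 3′ on the strand of the transcript, with RRACH in capitals. The stretch was centred on a motif and may run a few bases past the site.
Traf6 (3′UTR, positive, chr2:101700827-101700856, plus strand): aacctGAACTtgGGACActctcggtcacaa
Tmem119 (3′UTR, positive, chr5:113794495-113794524, minus strand): gttagatttggaAGACAtcaatgactgggc
Wtap (3′UTR, negative, chr17:12975253-12975282, minus strand): actccccagtcaAGACTtccctgacagtcc
Gspt1 (3′UTR, negative, chr16:11220717-11220746, minus strand): ctgcccattgacAAACCtctccccatactt
Ppp5c (3′UTR, negative, chr7:17004905-17004934, minus strand): gtcagagaaaggAGACTggaggtagggcac
Bmp10 (coding, positive, chr6:87433792-87433821, plus strand): cagagatctacgGAACCaacagtgagtggg
Plec (coding, positive, chr15:76176415-76176444, minus strand): ctcatcccccgaGAACAgggcctgcgcctg
Twistnb (coding, negative, chr12:33437861-33437890, plus strand): acaggaagAAACAGACAtaccatgtagtga
Kctd3 (coding, negative, chr1:188972472-188972501, minus strand): tgggcccagcccAGACTgaggtgaaagggg
Zfp507 (coding, negative, chr7:35776260-35776289, minus strand): gcagtgaagagaGAACTggccctaccacag
The motif words differed from site to site. AGACT stood in the stretches of Wtap, Ppp5c and Kctd3, all negative, as were most of the members shown. In Twistnb the words AAACA and AGACA overlapped by 1 base. Some sites held a further RRACH word outside the stretch, such as GGACA in Wtap and AGACC in Kctd3.

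The last exons that held members were long, and members lay nearer to the junction than the bases of these exons did. The median last exon measured 2153 nt (quartiles 1273 and 3652) in transcripts of a median 3709 nt. Last exons held 61.8% of the placed sites (95% Wilson interval 57.7 to 65.7), where on average 55.1% of the bases of the same transcripts are last exon. The median member lay 471.5 nt past the last exon-exon junction and 1396 nt before the annotated transcript end. In the first 50 nt after the junction lay 23 of the 330 members with a junction, 7.0% against 3.2% of the bases of these last exons. Beyond 1600 nt from the junction lay 12.1% of members and 28.4% of the bases. At the other end, only 2 members lay within 100 nt of the transcript end, 0.6% against 6.4% of the bases, whereas 44.6% of members and 29.4% of the bases lay more than 1600 nt from it. Distance runs from the midpoint of a site of 50 nt or more, so the bases nearest the transcript end could hold few or no midpoints. Position is what the rule used, so these shares are given without a test.

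The members nearest the junction belonged to Ubxn4, an endoplasmic reticulum protein of protein degradation, and to the kinase gene Cdk18. Their midpoints lay 1 and 2 nt past the junction, with a logFC of -0.52 for Ubxn4 and 3.12 for Cdk18. Both crossed the junction, as did 10 members in all, 7 positive and 3 negative. Just outside the last exon, the nearest midpoint was that of Appbp2, 24 nt before the junction with a logFC of 3.33, followed by Vasn at 30 nt with 2.91. The members nearest the transcript end were those of Sdr42e1, a gene of the short-chain dehydrogenase family, and of Mccc1, a subunit of the carboxylase of leucine breakdown. Sdr42e1 had its midpoint 74 nt from the end and a logFC of 1.14, and Mccc1 93 nt from the end and a logFC of 3.26. The last exon of Mccc1 is 297 nt long, so that its member also lay only 87 nt past the stop codon.

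**Figure D1:**
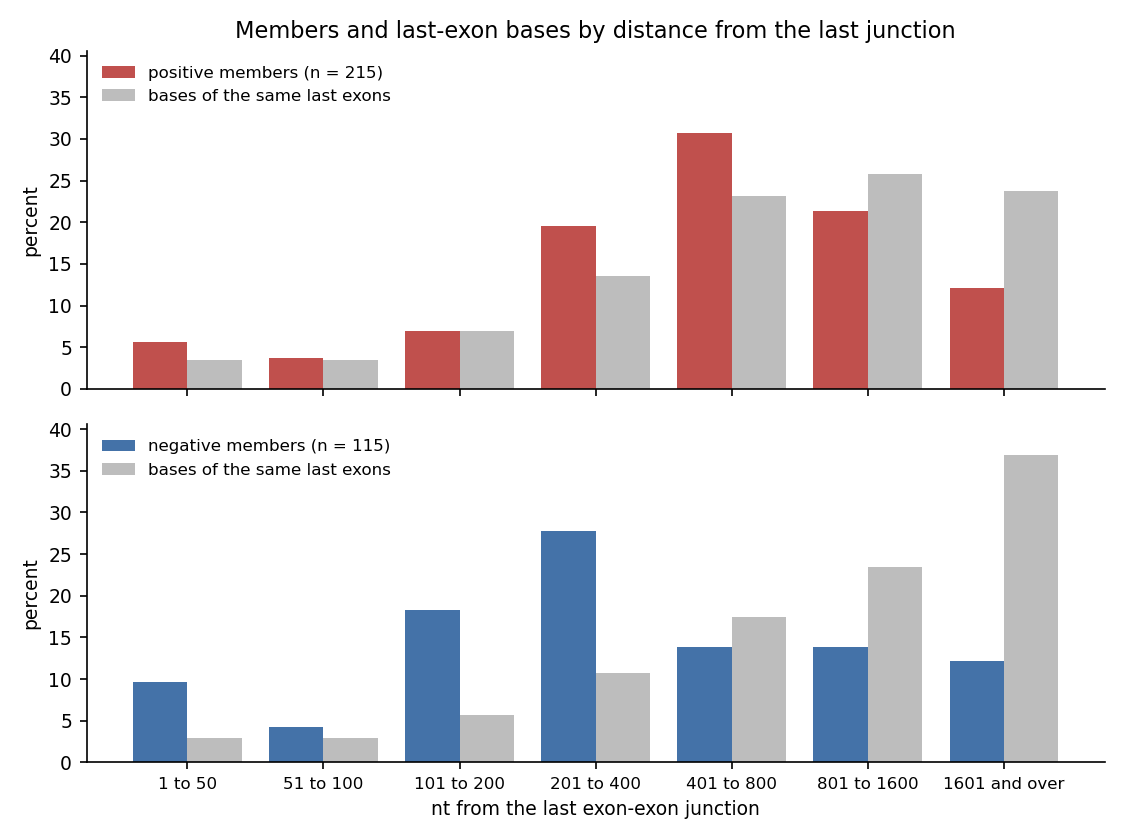
Percent of positive members (upper panel, 215) and negative members (lower panel, 115) with a last exon junction, by nt from that junction, beside the percent of the bases of the same last exons in grey. Negative members were most frequent between 201 and 400 nt, with 27.8% of members and 10.7% of the bases, and positive members between 401 and 800 nt, with 30.7% and 23.2%.

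Among members, 232 had a positive and 120 a negative logFC. The share of positive members was 65.9% (95% Wilson interval 60.8 to 70.7), near the 66.4% of all listed sites. In other exons 153 of 218 sites were positive, 70.2%. The difference of -4.3 percentage points did not pass the threshold (two-sided Fisher exact test, p = 0.312, adjusted over the 5 comparisons made here 0.312), and it turned to 1.3 points when sites of an absolute logFC below 1 were left out.

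Within last exons, sign went with the part of the exon. In the 3′UTR 153 of 206 members were positive, 74.3% (67.9 to 79.8), and in the coding part 77 of 144, 53.5% (45.3 to 61.4). By the two-sided Fisher exact test this difference, 20.8 points, had p = 6.28e-05 (adjusted 0.000314). The remaining 2 members lay in the 5′UTR of the intronless genes Kbtbd7 and Dolk and were positive. For comparison, 126 of 188 sites in the coding sequence of other exons were positive, 67.0%, a value closer to that of all listed sites than the coding part of last exons was, which is given without a test. The difference between 3′UTR and coding part did not pass the threshold when sites with p values above the median were left out (13.0 points, Fisher exact test, adjusted p = 0.123), nor among members with an absolute logFC of at least 1 (85.3% against 75.6% positive, Fisher exact test, adjusted p = 0.384). Among those with an absolute logFC of at least 2 it was 2.1 points (97.6% against 95.5%, Fisher exact test, adjusted p = 0.7), and under 2 it was 21.1 points (39.0% against 17.9%, adjusted p = 0.0244).

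**Figure D2:**
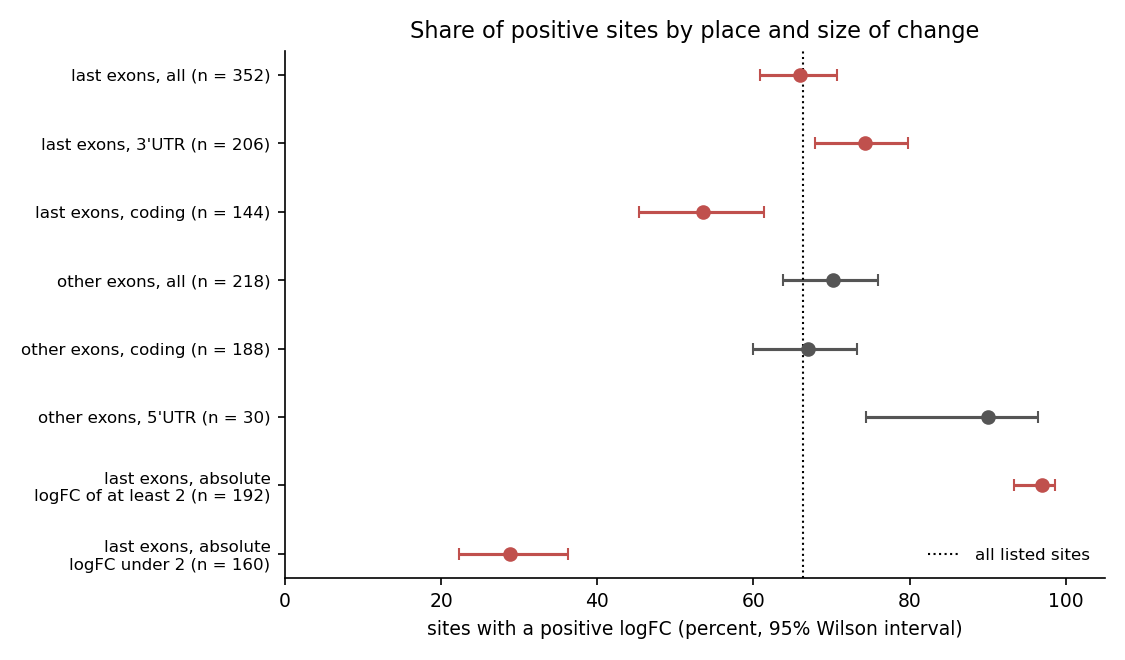
Percent of sites with a positive logFC and its 95% Wilson interval, for sites in last exons (red) and in other exons (grey), and for members split by the size of the logFC. The dotted line is the 66.4% of all listed sites. The interval of the 3′UTR part of last exons (67.9 to 79.8) does not overlap that of the coding part (45.3 to 61.4), and the largest contrast is between members with an absolute logFC of at least 2 (96.9%) and under 2 (28.8%).

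Sign and size were tied to each other. Of the 192 members with an absolute logFC of at least 2, 186 were positive, and of the 160 under 2, 114 were negative. No member lay between 1.98 and 2.11. The median logFC of positive members was 3.26 and that of negative members -0.894. Within each sign it was of like size in both parts of the exon. It was 3.3 in the 3′UTR and 3.11 in the coding part for positive members, and -0.905 and -0.828 for negative ones. With both signs pooled, the median absolute logFC was 2.96 in the 3′UTR and 1.45 in the coding part. An absolute logFC of at least 2 was found in 124 of 206 members of the 3′UTR and 66 of 144 of the coding part. The parts thus differed in their mix of sizes as well as in sign. For 83 of the 192 larger values, e raised to the absolute logFC was within 0.01 of a whole number, as for 1 of the 160 smaller ones. Several members named below are among these 83, such as Hk1 (206), Dok2 (140), Mtmr6 (106), Sprtn (98), Il1b (94) and Traf6 (46). The count of whole numbers leaves out simple fractions, such as Tmem119 (46.500), Ltn1 (42.500), Ppp5c (29.500) and Rela (42.333). How many of the 192 larger values were simple fractions was not counted, so the 83 are not all values of this kind. To 4 decimals, 132 of the 192 shared their logFC with another listed site and none of the 160 did.

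The 6 negative members with an absolute logFC of at least 2, named here after their values were seen, were in Il1b, Zfp503, Ltn1, Ppp5c, Cd200r1 and Adgrg3. The cytokine gene Il1b had the most negative value, -4.54, in its coding part 66 nt before the end of the stop codon (chr2:129365071-129365120, minus strand, exon 7 of 7). The transcription factor gene Zfp503 followed with -4.40, also in its coding part. By the authors' RADAR test the listed p was 0.000551 for Il1b and 0.000633 for Zfp503. Both were above the third quartile of negative members, 0.000527, so these 2 sites stood late in the order of p. The median listed p of the 6 was 6.87e-05.

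The place of members around the stop codon was then compared between the signs. Negative members were frequent on both sides of it, with 27.5% in the last 200 nt of coding sequence, stop codon included, and 24.2% in the first 200 nt of 3′UTR, against 8.2% and 11.1% of the bases of their last exons. In the stretch before these, from 400 to 201 nt upstream of the end of the stop codon, lay 12.5% of negative members against 3.5% of the bases. Farther upstream lay 15.8% of negative members against 12.6% of the bases. Positive members had 13.4% and 18.1% in the 200 nt before and after it, against 10.1% and 13.0% of the bases. In the next stretch, 201 to 400 nt into the 3′UTR, 43 of 49 members were positive, and between 401 and 800 nt 34 of 40. The stretch from 201 to 400 nt held 18.5% of positive members against 11.4% of the bases of their last exons. Of the 71 members in the first 200 nt of 3′UTR, 42 were positive.

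Within 400 nt of the end of the stop codon lay 83 of 120 negative members, 69.2% (60.4 to 76.7), and 130 of 232 positive ones, 56.0% (49.6 to 62.3). The difference of -13.1 points, positive minus negative, had p = 0.0212 in the two-sided Fisher exact test and missed the threshold after adjustment (0.0531). At a distance of 200 nt the shares were 51.7% and 31.5%, a difference of -20.2 points that passed it (Fisher exact test, adjusted p = 0.000796), and at 800 nt they were 81.7% and 77.2%, a difference of -4.5 points that did not (adjusted p = 0.341). Within classes of size the difference at 400 nt was smaller or turned. It was -2.8 points among members with an absolute logFC under 2 (Fisher exact test, adjusted p = 1) and 3.2 points among those of at least 2, of which 6 were negative. At 200 nt the shares under 2 were 41.3% of 46 positive and 51.8% of 114 negative members, a narrower gap than in all members. Among those of at least 2, 54 of 186 positive and 3 of 6 negative members lay within 200 nt. These shares by size are given without a test, so the result at 200 nt was not separated from size. Of the bases of the last exons, 32.1% lay within 400 nt of the stop codon for negative members and 38.9% for positive ones.

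**Figure D3:**
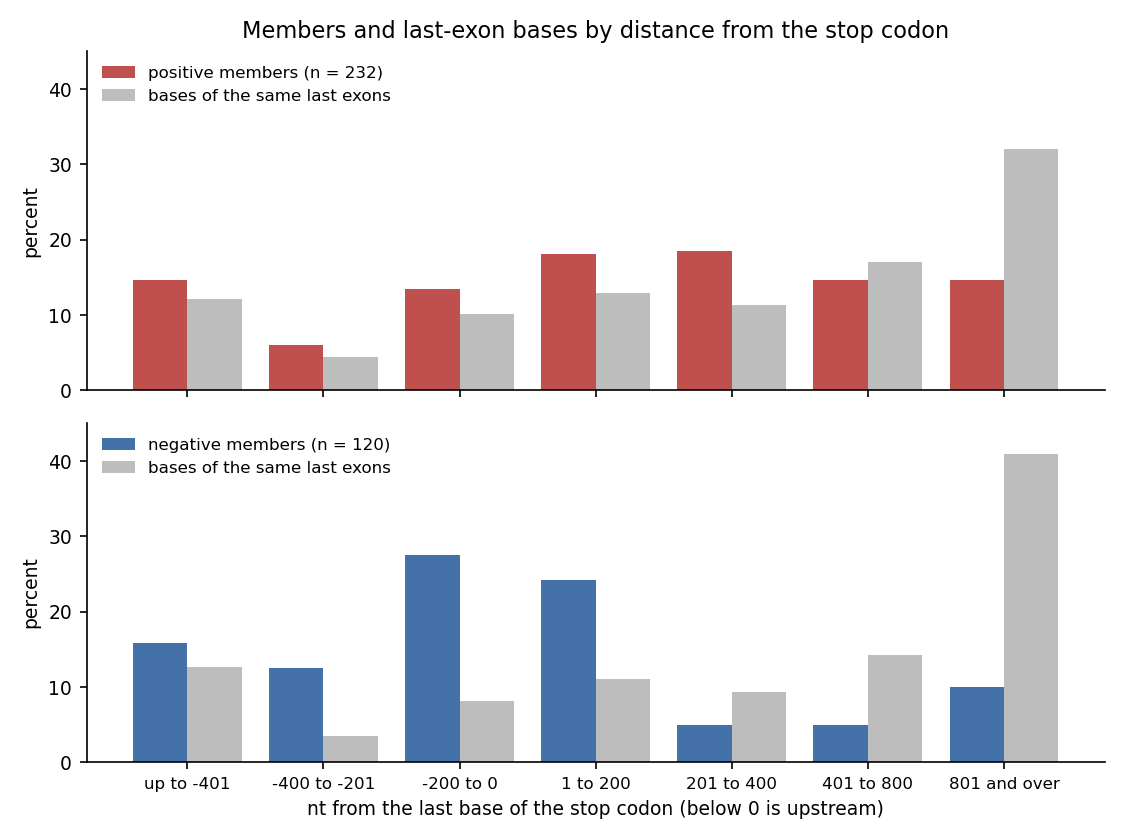
Percent of the 232 positive members (upper panel) and the 120 negative members (lower panel) by nt from the last base of the stop codon, with upstream distances below 0, beside the percent of the bases of the same last exons in grey. Negative members exceed the bases from 400 nt upstream (12.5% against 3.5% in the stretch to 201 nt, then 27.5% against 8.2%) to 200 nt downstream of the stop codon (24.2% against 11.1%). Farther upstream they exceed the bases by less, with 15.8% against 12.6%.

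**Figure D4:**
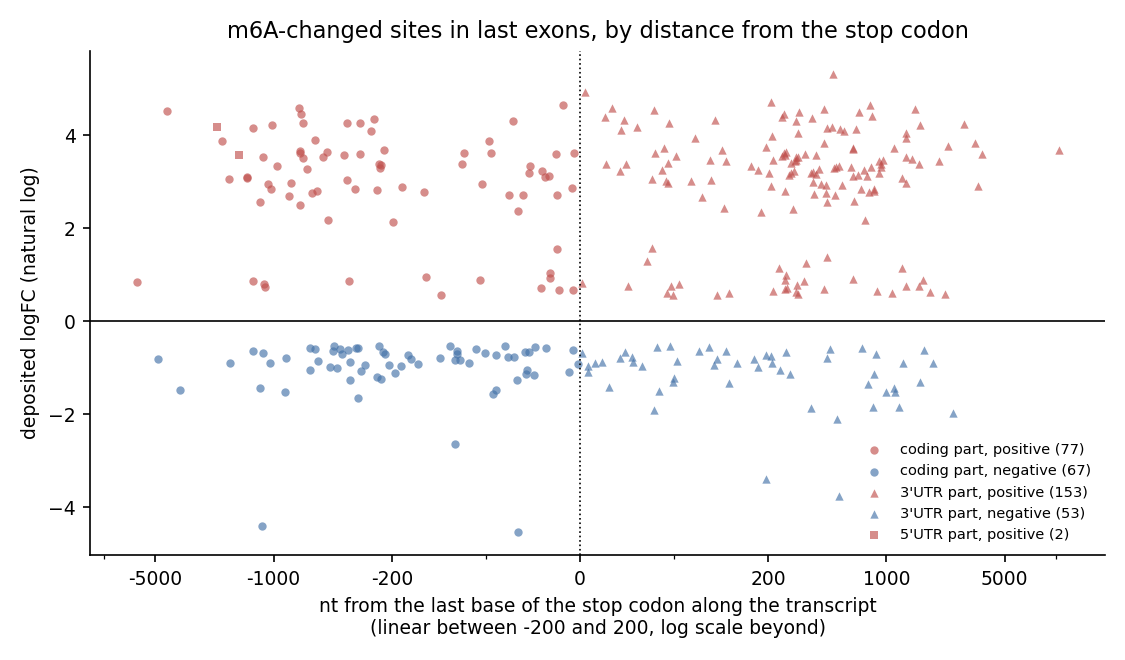
Deposited logFC of each of the 352 members on the natural log scale against its distance from the last base of the stop codon, linear to 200 nt and on a log scale beyond. Circles are coding, triangles 3′UTR and squares 5′UTR; positive members are red and negative ones blue. Positive members form an upper band with a logFC above 2 and a smaller band under 2, while all but 6 negative members lie between 0 and -2.

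The motif was not used by the rule. RRACH was searched on the transcript strand only, wholly inside the site. It was found in 220 of 352 members, 62.5% (57.3 to 67.4), and in 121 of 218 sites of other exons, 55.5% (48.9 to 61.9). The difference of 7.0 points did not pass the threshold (two-sided Fisher exact test, p = 0.114, adjusted 0.189). With DRACH, which holds every RRACH word, the difference was 9.8 points and passed it (Fisher exact test, adjusted p = 0.0354), and with GGAC, which overlaps RRACH where A, C or T follows, it turned to -6.0 points. Of all 50 nt windows in the last exons of 21637 transcripts, 1 per gene, 48.5% held RRACH, 61.9% DRACH and 13.7% GGAC, beside 62.5%, 72.2% and 23.9% of the members. In the coding part RRACH stood in 60.4% of members and 49.9% of windows, and in the 3′UTR in 64.1% of members and 48.0% of windows. These windows include genes that liver may not express, and 5 members were longer than 50 nt, up to 100 nt.

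RRACH was found in 139 of 232 positive members, 59.9% (53.5 to 66.0), and in 81 of 120 negative members, 67.5% (58.7 to 75.2). The difference of -7.6 points did not pass the threshold (two-sided Fisher exact test, p = 0.201, adjusted 0.252), and it turned to 8.1 points among members with an absolute logFC of at least 2 and to 4.6 points with GGAC. The most frequent word, AGACT, stood in 21 of 120 negative members, 17.5%, and in 20 of 232 positive ones, 8.6%. GGACT, a word often named as the best substrate of the writer, stood in 8 negative and 19 positive members, 6.7% and 8.2%. The word counts are descriptions, given with no test. Base composition moved with the sign: the median GC content was 48% in negative and 54% in positive members, and its part in the results above was not tested.

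Among positive members in the 3′UTR, the smallest p was that of Traf6, a ubiquitin ligase that relays signals of interleukin-1 and Toll-like receptors to NF-kB. Its site, 3347 nt past the stop codon, had a logFC of 3.83. Tmem119, a membrane protein known as a marker of microglia, had a logFC of 3.84, the ETS factor gene Etv5 4.45 and the BEN domain gene Bend7 4.37, all between 247 and 426 nt past the stop codon. The sites of Etv5 and Bend7 held no RRACH, and that of Etv5 had another match in the genome. These 4 values stood in the upper band of the plot of logFC against distance.

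Negative members in the 3′UTR with the smallest p values were smaller in size than these. Wtap, the gene of the writer subunit, had a logFC of -0.78 at 42 nt past the stop codon. Orai3, a calcium channel of the plasma membrane, had -1.84 at 833 nt, and Gspt1, a release factor of translation termination, -1.91 at 79 nt. Ppp5c, a protein phosphatase gene, had the largest of the 4 in size, -3.38 at 198 nt. The site of Gspt1 had another match in the genome and that of Wtap had 2.

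In the coding part, the positive members with the smallest p were in Sprtn, a protease of DNA-protein crosslink repair, Bmp10, a ligand of the BMP family, the cytoskeletal linker gene Plec and the phosphoinositide phosphatase gene Mtmr6. Their logFC values were 4.58 for Sprtn, 4.45 for Bmp10, 4.53 for Plec and 4.66 for Mtmr6. The site of Sprtn began close to the junction, with its midpoint at 66 nt, whereas that of Plec lay 4267 nt upstream of the end of the stop codon in a last exon of 7412 nt. The site of Mtmr6 (chr14:60300478-60300527, plus strand, exon 14 of 14) covered the stop codon.

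The negative members of the coding part with the smallest p were about 1 or less in size. Twistnb, a subunit of RNA polymerase I, had a logFC of -0.73, the BTB domain gene Kctd3 -0.88, the zinc finger gene Zfp507 -1.07 and the SANT domain gene Msantd4 -0.59. All 4 lay within 400 nt upstream of the end of the stop codon, Msantd4 nearest at 111 nt and Kctd3 farthest at 355 nt. The sites of Twistnb and Zfp507 each had another match in the genome.

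Of 24 genes of the m6A machinery, Wtap and Mettl16 held members, 3 in all and all negative, where 33.6% of listed sites were negative. Over the annotation, 1.6% of protein-coding genes held a member, expressed in liver or not. Wtap held 2, with midpoints 100 nt apart and logFC values of -0.78 and -0.94, but its sites lay in only 2 of its 8 coding transcripts. Mettl16, a methyltransferase of U6 RNA and of the Mat2a mRNA, had -0.84 in its coding part. Listed sites in the reader genes Ythdf1, Ythdf2 and Ythdf3 were not members.

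Among 30 genes of insulin and glucose metabolism, Hk1 and Insr held a member each, both in the 3′UTR and positive. Hk1, hexokinase of glycolysis, had the largest logFC of all members, 5.33, at 485 nt past the stop codon (chr10:62269400-62269449, minus strand, exon 18 of 18). The member of Insr, the insulin receptor gene, had 3.45 at 2036 nt (chr8:3153609-3153658, minus strand, exon 21 of 21). The site of Hk1 was present in 3 of its 18 coding transcripts and that of Insr in 1 of 2. None of 40 genes of lipid, lipoprotein and bile acid metabolism, none of 19 circadian clock genes and none of 8 hepatocyte markers held a member. At the 1.6% of all protein-coding genes, lists of this size would hold few or none. That share counts genes whether expressed in liver or not, so the share for expressed genes such as these is unknown. Apob, on the lipid and the hepatocyte list, had a listed site that was not a member.

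The list of innate immune and NF-kB genes had members in 5 of 30 genes, 3 positive and 2 negative, where 1.6% of protein-coding genes held one. The positive ones were in the 3′UTR, in the adaptor gene Dok2 with a logFC of 4.94, in Traf6 with 3.83 and in Rela, the p65 subunit of NF-kB, with 3.75. The negative ones were in the coding part, in Il1b with -4.54 and in Cd200r1, an inhibitory receptor of myeloid cells, with -2.65. This list and the others were written with earlier results of these data known, so their counts of genes are descriptions, given with no test.

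BMP, TGF-beta and WNT genes likewise gave members in 5 of 31 genes, 3 positive and 2 negative, beside the same 1.6% of protein-coding genes. Among ligands Bmp10 had a logFC of 4.45. Among receptors and co-receptors Eng, which binds BMP9 and BMP10 on endothelium, had 0.60, and the frizzled receptors of WNT, Fzd4 and Fzd7, had -0.69 and -1.13. Axin2, an inhibitor and a target of the WNT pathway, had 3.19. Fzd8, a frizzled receptor gene that is not on the list, held 2 members, with 3.05 and 2.56, so frizzled genes went in both directions.

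Of 38 genes of ubiquitin ligases and adaptors, 5 held a member, again 3 positive and 2 negative and beside the same 1.6%. Beside Traf6 these were Ube4b with a logFC of 4.26, the HECT ligase gene Herc2 with 3.56, Cul1, the scaffold of SCF ligases, with -1.09, and Ltn1, a ligase of ribosome quality control, with -3.75. The site of Cul1 covered the stop codon. Read against the 66.4% of all listed sites, 3 of 5 positive in each of these lists is near the background.

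Of the markers of cells other than hepatocytes, Eng, 1 of 6 for endothelial cells, held a member. So did the complement gene C1qc, 1 of 8 for Kupffer cells and macrophages. Both were positive and small, 0.60 and 0.81. Members in immune genes that are not on these short marker lists were larger and went both ways, such as Il1b with -4.54 and Dok2 with 4.94. Markers of stellate cells and cholangiocytes held none. In whole liver, a site in such a gene may come from cells other than hepatocytes, and the part of these cells in any site was not tested.

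**Figure D5:**
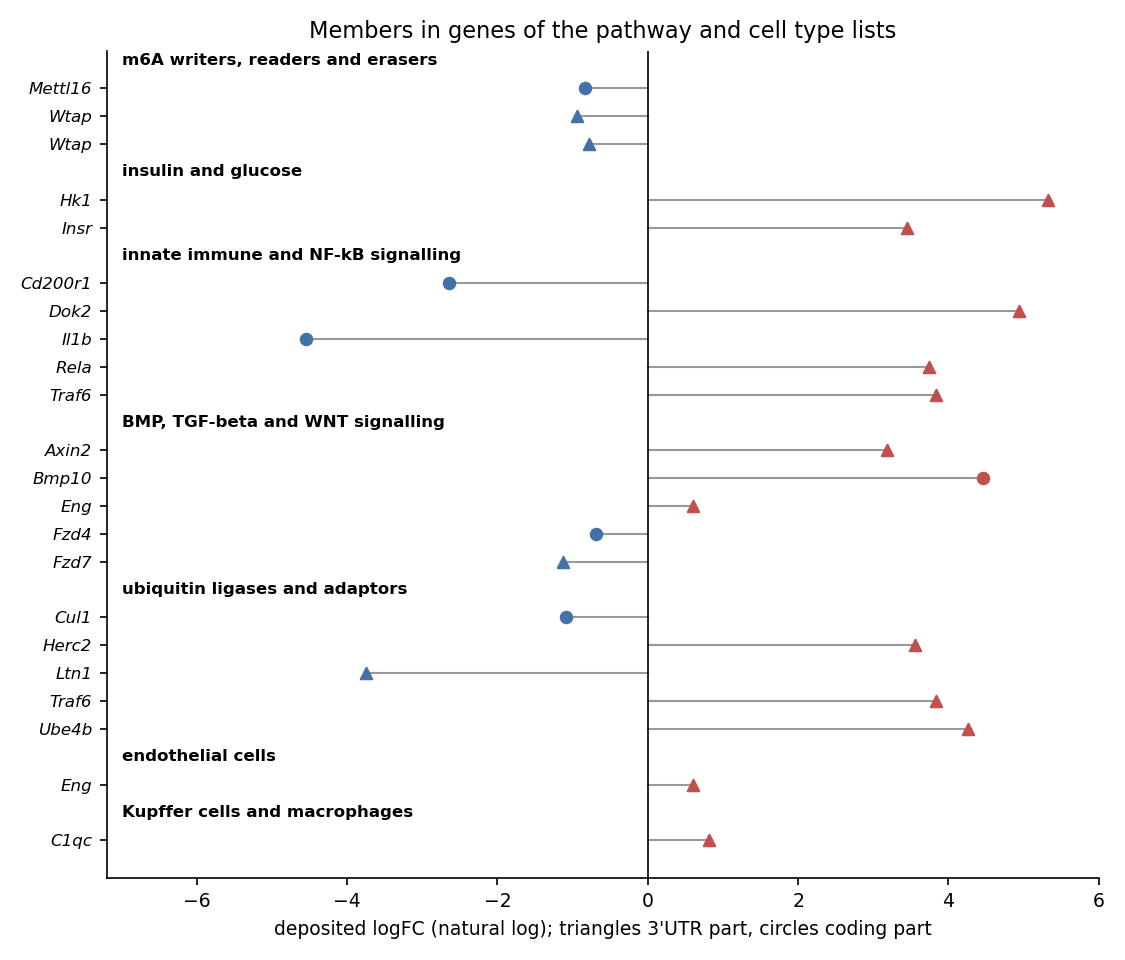
Deposited logFC, on the natural log scale, of members in genes of the pathway and cell type lists; triangles lie in the 3′UTR and circles in the coding part. Values run from -4.54 in Il1b to 5.33 in Hk1, and Wtap is the gene with 2 members. Traf6 and Eng stand in 2 lists each.

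In 13 genes 2 members were found, and in 10 of these both had the same sign. As 65.9% of all members were positive, like signs are frequent without any tie within a gene. Members of 1 gene share an INPUT size factor and are not independent. In Itga3, an integrin gene, midpoints 100 nt apart had logFC values of 3.27 and 3.32, and in Dus4l, a tRNA dihydrouridine synthase gene, midpoints 98 nt apart had 3.45 and 2.80. The members of the intronless Fzd8 lay 649 nt apart in the coding part, with 3.05 and 2.56. In Nrf1, a transcription factor of mitochondrial genes, they were 949 nt apart with 3.19 and 3.53, and in Nxn 99 nt apart with 3.63 and 1.56. Pairs of negative members were found in Wtap, in Smg1, the kinase of nonsense-mediated decay (-0.89 and -0.60), in Jade1 (-0.53 in the coding part and -1.86 in the 3′UTR), and in Gvin1 and Gm4070. The last pair are near-identical copies of a large GTPase gene, whose sites had 4 to 6 other matches in the genome, and they are uncertain as separate genes.

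In the other 3 genes the signs were opposite. Lrrfip1 had 3.53 and -0.90 at midpoints 100 nt apart in the coding part. Rassf4 had 4.17 at 61 nt and -1.98 at 2459 nt past the stop codon. The intronless Kbtbd7 had 4.17 in the 5′UTR and -0.77 in the coding part, 77 nt before the end of the stop codon. In each of these genes the positive value was the larger in size.

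The place of a member depends on the transcript. The site was part of every coding transcript of the gene for 182 of the 352 members. For 350 members it lay in the last exon of every coding transcript that contained it. An exon of another gene overlapped 13 members, 3 on the same strand and 10 on the opposite one, and the sequence of 38 members had another match in the genome.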

How the data were processed

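The authors mapped reads to mm10 with HISAT2 (version not given in the sources used here), counted them in bins along concatenated exons, normalized IP counts for IP efficiency and gene-wise INPUT level, tested the genotype in each bin with RADAR and joined neighbouring bins that passed. Fold changes were deposited by the authors as coefficients on the natural log scale (logFC). The p-values the authors deposited are labelled as p values only, with no adjustment named. How those of merged bins were combined is not given in the sources used here. The table holds the authors' comparison only, so depth and per-mouse values are not known, and the FDR limit is not given in the sources used here. The smallest absolute logFC listed is 0.50.

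Sites were placed on GENCODE M21 (GRCm38). Among the 622 sites the gene name was found for 581 as listed and for 19 under a synonym, and 52 sites could not be placed. All 90 inner edges of sites split over exons fell on exon edges counted from 1. Distances run along the transcript from the midpoint. Sequences were read with pysam 0.24.0, and copies searched with BLAST+ 2.17.0. Shares have 95% Wilson intervals over sites, which cover counting error only. The 5 comparisons used two-sided Fisher exact tests (SciPy 1.17.1) with Benjamini-Hochberg adjustment and a threshold of 0.05. Grey bars in the plots average the shares of bases over members.

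Named members are the 4 with the smallest p in each class of sign and part, those nearest the junction and the end, genes with 2 members and members in gene lists, except for those said to be named later. The members, lists and tests were chosen with earlier results of these data known.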

Additional observations from a re-analysis of the deposited data

How the results depend on the processing

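Of 56 alternative values of the 5 comparisons, 42 kept their direction and their side of the threshold. Only the comparison of 3′UTR and coding part had passed the threshold, and of its 10 alternatives 7 kept the call and 3 lost it. The rest of the 42 belong to comparisons that had not passed, where the same side means still not passing. No paired analysis was possible because the table holds no value per mouse, and leaving out a mouse was not possible for the same reason. The alternatives were 1 site per gene, limits on the size of the logFC, the sites with the smaller p values, the transcript with the longest CDS, sites wholly inside 1 exon class, sites without overlapping genes, without other genome matches or without intronless transcripts, other motifs and other distances. The limit of an absolute logFC of at least 2 was chosen after seeing the data. The cause of the changes was not tested.

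With an absolute logFC of at least 1, the share of positive sites in last exons minus other exons reversed to 1.3 points, and that in 3′UTR minus coding part was 9.8 points and no longer passed. With an absolute logFC of at least 2 these were 2.9 (reversed) and 2.1 points (not passed), RRACH in positive minus negative members reversed to 8.1 and the share within 400 nt of the stop codon to 3.2. When the sites with p values above the median were left out, 3′UTR minus coding part came to 13.0 points and no longer passed (adjusted p of the Fisher exact test 0.123). With GGAC, the motif difference between last and other exons reversed to -6.0 and that between signs to 4.6. With DRACH the former passed at 9.8 points. The stop codon difference passed at 200 nt (-20.2), with the longest CDS (-14.1), inside 1 exon class (-13.7) and without other genome matches (-14.4). These settings were not tested within classes of size. The 3′UTR difference kept its call in the other 7 alternatives, between 18.3 and 23.0 points. The precision of single logFC values is unknown without depth.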

Other observations

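The stop codon itself was covered by 18 members, 10 positive and 8 negative. Among the positive ones were Dok2 with a logFC of 4.94, Mtmr6 with 4.66, Btbd7 with 3.62 and the chemokine receptor gene Xcr1 with 2.71, and among the negative ones Cul1 with -1.09, Wdr26 with -0.96, the lipase co-activator gene Abhd5 with -0.93 and Ufl1, a ligase of the ubiquitin-like modifier UFM1, with -0.90. These genes and those below were chosen after their values were seen.

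In 22 members the transcript had no intron, so that its whole length counted as last exon. Of these 17 were positive and 5 negative. They included the transcription co-regulator gene Cited2 with a logFC of 3.57 and the heat shock gene Hspa1b with 2.80, whose site had another match in the genome, and on the negative side B3galt1 with -1.57 and Fzd7 with -1.13.

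More than 3000 nt past the stop codon lay 4 members, all positive. The farthest was in Aak1, a kinase of clathrin-coated vesicles, at 10406 nt in a last exon of 16020 nt, with a logFC of 3.68. The others were Ablim1 at 3687 nt with 3.60, Ccdc6 at 3451 nt with 2.91 and Traf6 at 3347 nt with 3.83.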
